A study of Homo sapiens with 27 samples.

Results

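miRNA levels were compared between K562 cells that lack USB1 and carry a short hairpin against PARN (USB1 KO_shPARN) and K562 cells that lack USB1 alone (USB1 KO), with 3 small RNA libraries in each group. All mature miRNAs listed in the deposited tables of both groups were followed, 1214 of the 2276 listed anywhere in the series and of the 1935 listed for K562. The remaining 21 of the 27 libraries include K562 Control_shPARN and K562 Control, with 3 libraries each, used here as the matched comparison in cells with USB1. The others are 5 groups of H1 human embryonic stem cells, used here only for marker levels. These are wild type, USB1 mutant, USB1 mutant with inducible USB1 without and with doxycycline, and USB1 mutant with a hairpin against PAPD5. K562 is an established chronic myelogenous leukaemia line with erythroid features. Per the study's methods, USB1 was disrupted with CRISPR and clones grown from single cells were screened by immunoblot, without a statement of how many clones the libraries came from, and USB1 KO_shPARN shares the USB1 loss with its reference. How the PARN hairpin was introduced in K562 is not described in the sources used here, and the labels give K562 no group with a non-targeting hairpin, so loss of PARN and the presence of a hairpin cannot be told apart. The sources also do not say whether USB1 KO_shPARN and USB1 KO came from the same clone, so a difference between clones cannot be told apart from them either. Small RNA libraries do not measure the RNA of USB1 or PARN, and neither knockout nor knockdown was checked here.

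PARN is a poly(A)-specific exonuclease that shortens RNAs from the 3′ end, and it is known to remove adenosines that are added to the ends of mature miRNAs. USB1 is a 3′ to 5′ exonuclease best known for trimming U6 snRNA, the small nuclear RNA of the spliceosome. A miRNA hairpin gives a 5p and a 3p mature strand, of which usually one, the guide, is retained in Argonaute, and pairing to messenger RNAs rests largely on the seed, bases 2 to 8 of the mature strand. miRNAs with the same seed are therefore read as one targeting family, and miRNAs encoded close together are often cut from one transcript. The comparison asks which mature miRNAs differ in level when PARN is depleted in cells that already lack USB1.

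The sequences below are those on which the results turn, taken from RefSeq (GRCh38.p14) in 5′ to 3′ direction with the seed in capitals. The first set holds 5 miRNAs of the imprinted 14q32 region, which carry 5 different seeds.
miR-654-3p: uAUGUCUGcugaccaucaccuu
miR-493-3p: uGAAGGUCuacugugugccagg
miR-381-3p: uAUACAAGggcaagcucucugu
miR-379-5p: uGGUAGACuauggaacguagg
miR-127-3p: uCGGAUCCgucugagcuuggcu

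The second set holds the 6 tested members of the miR-15/16 family, which share the seed AGCAGCA, and is shown because the first 3 were lower in USB1 KO_shPARN while the next 3 did not pass the test.
miR-195-5p: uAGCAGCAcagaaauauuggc
miR-424-5p: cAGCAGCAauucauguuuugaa
miR-497-5p: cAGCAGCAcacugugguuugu
miR-16-5p: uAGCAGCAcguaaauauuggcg
miR-15a-5p: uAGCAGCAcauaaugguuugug
miR-15b-5p: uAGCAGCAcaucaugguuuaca

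The third set shares the seed AGUGCAA, with the 2 members that were lower first and the 2 that did not pass the test after them.
miR-454-3p: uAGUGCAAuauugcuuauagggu
miR-301b-3p: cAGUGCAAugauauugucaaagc
miR-301a-3p: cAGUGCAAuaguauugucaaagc
miR-130b-3p: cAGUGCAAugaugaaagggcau

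The fourth set shares the seed ACCCGUA, of which the first 2 were higher in USB1 KO_shPARN.
miR-99a-5p: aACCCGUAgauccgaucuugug
miR-99b-5p: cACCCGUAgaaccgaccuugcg
miR-100-5p: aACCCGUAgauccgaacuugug

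The last set holds the most abundant miRNA that was higher, miR-21-5p, both strands of miR-132, and a pair of reverse complements, miR-7-5p and miR-3529-3p, since MIR3529 is annotated on the opposite strand of MIR7-2.
miR-21-5p: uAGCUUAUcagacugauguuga
miR-132-5p: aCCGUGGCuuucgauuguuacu
miR-132-3p: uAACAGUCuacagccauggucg
miR-7-5p: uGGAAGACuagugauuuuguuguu
miR-3529-3p: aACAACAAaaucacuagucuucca

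The USB1 KO_shPARN libraries held 9740475, 8988321 and 7670562 counts, against 9472475, 9794669 and 1530929 counts in the USB1 KO libraries. KO library 3 was thus the shallowest, and the 10 most abundant miRNAs held 74.1 to 79.2% of the counts of a library. KO libraries 1 and 2 were much alike: the chi-squared statistic between their counts, per degree of freedom, was 14.2, whereas every other pair within the 2 groups gave 178 to 807. Among the 421 miRNAs with a mean of at least 3 log2 CPM (CPM, the count divided by a library total that was adjusted by the TMM method, so that libraries of unlike depth can be compared), 7 were over 4-fold higher in KO_shPARN library 1 than in both of its replicates, miR-143-3p, miR-122-5p and miR-200b-3p among them. miR-143-3p, typical of smooth muscle and fibroblasts, stood at 13712, 1126 and 249 CPM in USB1 KO_shPARN, against 704, 1004 and 4143 CPM in USB1 KO. In KO library 3, 6 miRNAs stood apart in the same way, among them miR-143-3p, miR-4516 and miR-7704. Of 19 embryonic stem cell markers 12 were listed in USB1 KO_shPARN and 13 in USB1 KO, and before TMM scaling they summed to 13.7 to 59.7 CPM in USB1 KO_shPARN and 17.6 to 33.6 CPM in USB1 KO, whereas the lowest stem cell library had 417746 CPM. In Control they summed to 1514, 1594 and 30.4 CPM and in Control_shPARN to 39.6 to 46.8 CPM, so 2 of the Control libraries stood apart, and the part of this in the comparisons with Control was not tested beyond leaving out each library. The names of the Control columns also occur as titles of stem cell samples, and the columns were assigned to Control because the labels of that group name their table. All 7 epithelial markers were listed in both groups. Before TMM scaling they summed to 49.0 to 156 CPM in USB1 KO_shPARN and to 68.0 to 98.0 CPM in USB1 KO. The fibroblast list, also before TMM scaling, summed to 175273 to 270726 CPM in USB1 KO_shPARN and 130306 to 139293 CPM in USB1 KO. It contains miR-21-5p, which was called higher, and miR-199b-5p, which was called lower (log2 fold change -1.30). On the TMM scale miR-21-5p held 289689, 277843 and 172005 of the 304497, 279981 and 173183 CPM of the tested members in USB1 KO_shPARN. In USB1 KO it held 127337, 125944 and 98538 of 129057, 127901 and 103518 CPM, so the sum of this list is mostly that of 1 miRNA. The part of these libraries and markers in the results was not tested. Values without a library are given for the numbers of calls and the 14q32 list. For single miRNAs, lost calls are given only for those chosen by the rule for named miRNAs. Calls of miRNAs named outside that rule were not followed without a library. The 3 erythroid markers fixed for K562 were present in both groups, with 5024, 5199 and 6965 CPM of miR-486-5p in USB1 KO_shPARN against 4841, 4662 and 4269.9 CPM in USB1 KO, while miR-451a and miR-144-3p, described below, were called lower.

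Of the 1214 miRNAs, 881 were tested by edgeR quasi-likelihood, 134 were not listed in a Control table, and 199 had too few counts. Those not tested had a median of 2.83 counts per library, and the tested ones held at least 99.879% of the counts. At a Benjamini-Hochberg adjusted p under 0.05, 80 miRNAs were higher and 50 lower in USB1 KO_shPARN than in USB1 KO, which is 9.08% and 5.68% of those tested and 14.8% together. These shares are the background for each count of calls in a list, family or cluster below. The smallest adjusted p was 0.001701, and the median size of a called difference was 1.10 on the log2 scale. All 3 libraries of one group lay beyond all 3 of the other for 119 of the 130 called miRNAs and for 259 of the 881 tested, or 29.4%. Over all tested miRNAs the median log2 fold change was 0.11, with 489 above and 392 below 0. With library totals in place of TMM that median was -0.14 and the calls became 30 higher and 77 lower, so the balance of directions depends on the scaling. In these bulk libraries, less of a miRNA per cell and fewer cells carrying it cannot be told apart.

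**Figure D1:**
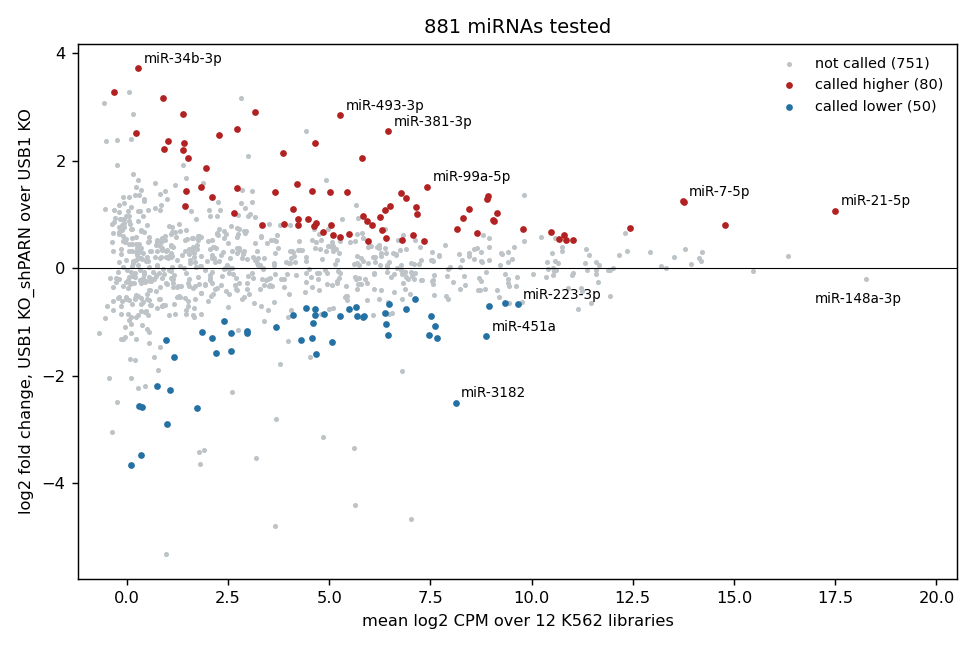
Log2 fold change of USB1 KO_shPARN over USB1 KO (y axis) against the mean log2 CPM over the 12 K562 libraries (x axis), with 1 point per miRNA. Red points are the 80 called higher, blue points the 50 called lower and grey points the 751 not called. miR-21-5p lies far to the right among the miRNAs called higher.

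The share of miRNAs called followed their level. With the tested miRNAs that have a RefSeq sequence split into 4 groups by level, it was 3.08, 13.3, 21.2 and 22.2% from the lowest group to the highest. The differences named below are therefore weighted to miRNAs with enough counts to be measured. Under every alternative tried, the removal of each library included, miR-654-3p, miR-493-3p, miR-381-3p, miR-21-5p, both strands of miR-132, miR-147b-3p, miR-3158-3p and miR-1307-5p stayed called higher, and miR-451a, miR-144-5p, miR-454-3p, miR-301b-3p, miR-362-5p and miR-628-3p stayed called lower.

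**Figure D2:**
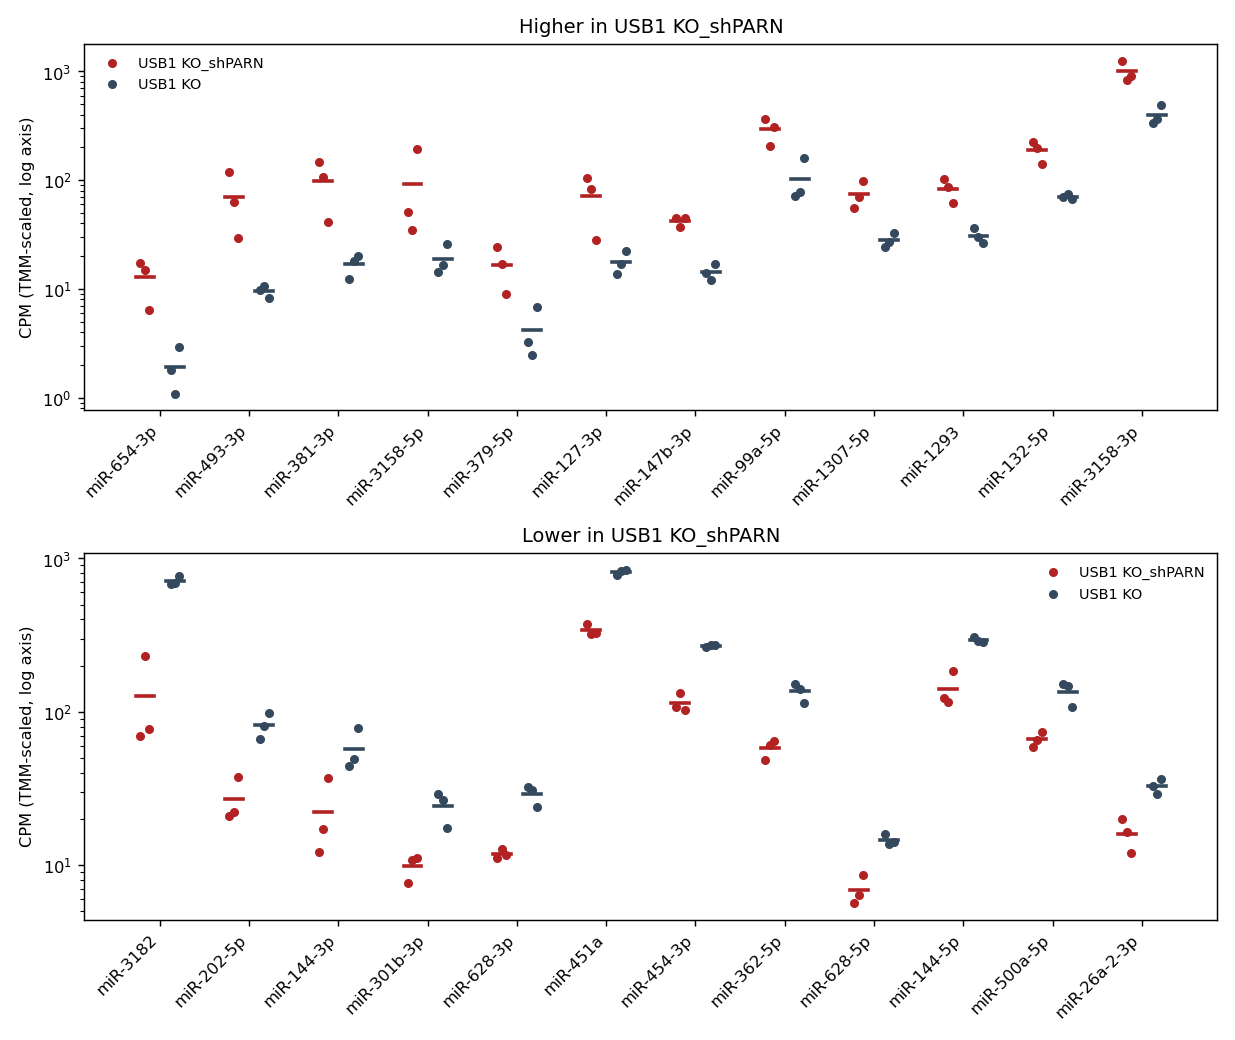
CPM on a log axis in each of the 3 USB1 KO_shPARN libraries (red, left) and 3 USB1 KO libraries (dark, right) for the 12 largest called differences in each direction, with the group mean as a bar. By the rule that chose these miRNAs, the groups do not overlap in any of them. KO_shPARN library 3, the right-hand red point, lies nearest to USB1 KO for the 5 14q32 miRNAs.

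Of the lists described, the one with the most miRNAs higher in USB1 KO_shPARN was that of 14q32, an imprinted region of chromosome 14 whose large miRNA clusters are transcribed from the maternal allele. Of 68 miRNAs on the list of this region 32 were listed in both tables and 27 were tested. Of the 27, 15 were called higher and 0 lower, with a median log2 fold change of 2.33 against 0.11 over all tested miRNAs, and all 27 were positive, between 0.46 and 3.29. Among tested miRNAs with both a hairpin and a mature entry in the RefSeq table, both clusters of the region held calls, 9 of 16 of the MIR379 to MIR656 cluster (chr14:101022066-101066801, plus strand) and 4 of 9 of the MIR493 to MIR136 cluster (chr14:100869060-100884783, plus strand).

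miR-381-3p, the most abundant of them, was at 146, 107 and 41.3 CPM in USB1 KO_shPARN, against 12.4, 18.2 and 19.9 CPM in USB1 KO. The groups did not overlap, and the log2 fold change was 2.56 (SE 0.40, edgeR adjusted p = 0.002747). miR-493-3p, which lies in an intron of the non-coding transcript MIR493HG, was at 118, 62.9 and 29.2 CPM in USB1 KO_shPARN, against 9.83, 10.7 and 8.25 CPM in USB1 KO. Its log2 fold change was 2.85 (SE 0.41, edgeR adjusted p = 0.001993), with no overlap, as the rule that chose it required. miR-127-3p, the imprinted miRNA encoded antisense to RTL1, was at 104, 83.6 and 28.2 CPM in USB1 KO_shPARN, against 13.7, 17.0 and 22.3 CPM in USB1 KO. KO_shPARN library 3 was close to the highest USB1 KO library, and the log2 fold change was 2.05 (SE 0.38, edgeR adjusted p = 0.005058).

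miR-654-3p, with 17.3, 14.9 and 6.44 CPM in USB1 KO_shPARN against 1.78, 1.08 and 2.91 CPM in USB1 KO, had the largest log2 fold change among the miRNAs chosen by the rule for named miRNAs, 2.91 (SE 0.41, edgeR adjusted p = 0.001701). miR-379-5p, the first miRNA of its cluster, had 24.1, 17.0 and 9.02 CPM in USB1 KO_shPARN against 3.24, 2.46 and 6.80 CPM in USB1 KO. Its log2 fold change was 2.15 (SE 0.41, edgeR adjusted p = 0.005058). miR-370-3p overlapped, with 34.4, 32.6 and 9.66 CPM in USB1 KO_shPARN against 6.48, 8.18 and 15.05 CPM in USB1 KO, and its log2 fold change of 1.44 passed the test at an edgeR adjusted p of 0.0444, which was lost without library 1 or library 2 of either group, with library totals or DESeq2 size factors, without the filter on low counts, with the replicate block and with only the 2 groups in the fit. The opposite strand miR-493-5p was also higher, by 2.48 on the log2 scale (not called without KO library 2), whereas miR-127-5p, at 0.129 to 2.43 CPM, gave 0.58 with an edgeR adjusted p of 0.696.

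The size of the 14q32 difference varied between libraries. The summed level of the 27 miRNAs was 521, 372 and 143 CPM in USB1 KO_shPARN, against 57.4, 67.3 and 95.1 CPM in USB1 KO, or 345 ± 190 CPM and 73.3 ± 19.6 CPM (SD, n = 3 each). All USB1 KO_shPARN libraries thus lay above all USB1 KO libraries for the sum, but only 10 of the 27 miRNAs separated singly. KO_shPARN library 1, the library in which miR-143-3p was high, was the highest of its group for 23 of the 27, and library 3 the lowest for 24. Without library 1 the median log2 fold change was 1.63 with 7 calls, without library 2 it was 2.13 with 7 calls, and without library 3 it was 2.77 with 20 calls. Leaving out USB1 KO library 1, 2 or 3 gave 2.36 with 8 calls, 2.11 with 5 calls and 2.501 with 13 calls. With only the 2 groups compared in the fit, 16 of the list were tested, 4 were called, miR-127-3p and miR-379-5p no longer among them, and the median was 2.11.

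The same miRNAs differed between USB1 KO and Control, in a comparison that shares the USB1 KO libraries with the one above. Across all tested miRNAs, 45 were called between USB1 KO and Control (5.11%), and 16, 27 and 30 without Control library 1, 2 or 3. The 27 miRNAs summed to 73.3 ± 19.6 CPM in USB1 KO and 546 ± 49.3 CPM in Control (SD, n = 3 each), and all 27 were lower in USB1 KO, 15 of them called, with a median log2 fold change of -2.69. Only 16 of the 27 passed the low-count filter when the Control groups were left out of the fit. The rest were kept only with the Control groups counted, so their lower level in USB1 KO is partly built in. Control library 3, low in stem cell markers, had 495 CPM of the sum and the other Control libraries 549 and 593 CPM. In Control_shPARN they summed to 530, 525 and 372 CPM, against 549, 593 and 495 CPM in Control, and 0 of the 27 were called, with 0.03 for miR-493-3p and -0.23 for miR-381-3p on the log2 scale. Over all 881 miRNAs, 118 had an unadjusted p under 0.05 in that comparison. For the sum, KO_shPARN library 1 lay within the range of the Control libraries, and libraries 2 and 3 lay between the USB1 KO and the Control ranges.

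**Figure D3:**
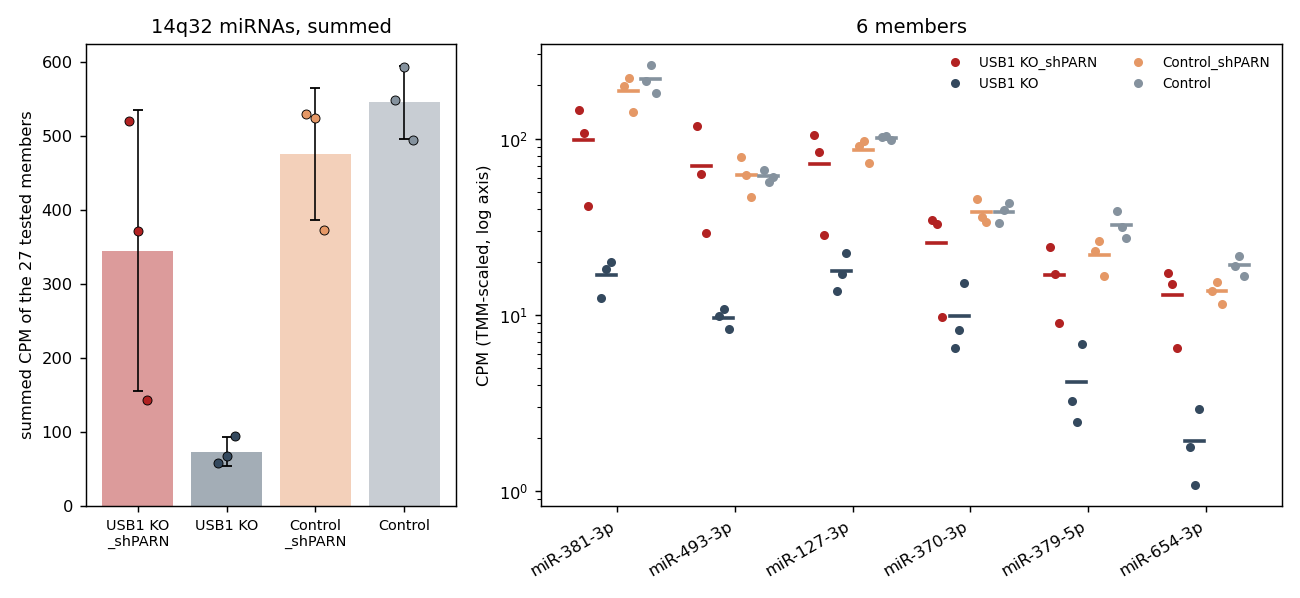
Left, summed CPM of the 27 tested 14q32 miRNAs in each library, with bars for the mean and error bars for the SD of 3 libraries, in USB1 KO_shPARN, USB1 KO, Control_shPARN and Control. Right, CPM on a log axis of 6 of them in the same order of groups, with the group mean as a line. USB1 KO is the lowest group for the sum, and USB1 KO_shPARN spreads from 143 to 521 CPM.

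Outside 14q32, the miRNAs higher in USB1 KO_shPARN included several abundant ones. miR-21-5p, an abundant miRNA transcribed with the gene VMP1 (chr17:59841266-59841337, plus strand) and raised in many cancers, was at 289689, 277843 and 172005 CPM in USB1 KO_shPARN, against 127337, 125944 and 98538 CPM in USB1 KO. It held 25.8, 25.3 and 17.4% of all counts in USB1 KO_shPARN, against 12.9, 13.1 and 13.3% in USB1 KO. The groups did not overlap, and the log2 fold change was 1.07 (SE 0.21, edgeR adjusted p = 0.005949). miR-148a-3p, the most abundant miRNA of these cells, held 28.1, 28.2 and 31.7% of counts in USB1 KO_shPARN and 41.3, 41.2 and 37.0% in USB1 KO. On the TMM scale its log2 fold change was -0.20 with an edgeR adjusted p of 0.530, so the lower share was not accompanied by a called difference.

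miR-7-5p, a brake on growth factor signalling, was at 38649, 29327 and 19139 CPM in USB1 KO_shPARN, against 13644, 12281 and 10841 CPM in USB1 KO. It was higher by 1.24 on the log2 scale (SE 0.36, edgeR adjusted p = 0.0438) with no overlap between the groups. miR-3529-3p, whose sequence is the reverse complement of miR-7-5p, had nearly the same counts in every library and a log2 fold change of 1.25, so reads of the pair cannot be told apart. Both calls were lost without any 1 of the libraries but KO_shPARN library 3, with library totals as the scale and without the filter on low counts, and that of miR-7-5p also with DESeq2 size factors. miR-151a-3p was at 42434, 33929 and 42909 CPM in USB1 KO_shPARN, against 21972, 23063 and 22951 CPM in USB1 KO, and was higher by 0.81 (SE 0.15, edgeR adjusted p = 0.00505).

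miR-132, encoded with miR-212 (chr17:2049908-2050380, minus strand) and induced by the transcription factor CREB in neurons, was higher on both strands. miR-132-5p was at 224, 199 and 142 CPM in USB1 KO_shPARN, against 69.7, 75.3 and 67.0 CPM in USB1 KO, a log2 fold change of 1.41 (SE 0.20, edgeR adjusted p = 0.001701). miR-132-3p was at 264, 226 and 196 CPM in USB1 KO_shPARN, against 114, 109.9 and 118 CPM in USB1 KO, a log2 fold change of 1.004 (SE 0.16, edgeR adjusted p = 0.002747). Neither strand overlapped between the groups.

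miR-147b-3p, which lies in an exon of C15orf48 (chr15:45433050-45433129, plus strand), was at 44.9, 36.9 and 44.4 CPM in USB1 KO_shPARN, against 14.1, 12.1 and 17.0 CPM in USB1 KO. Its replicates were close in both groups, and the log2 fold change was 1.56 (SE 0.22, edgeR adjusted p = 0.001701). miR-3158-3p, annotated to hairpins on both strands of one interval of chromosome 10, of which the plus strand lies in an intron of DPCD, was at 1258, 835 and 918 CPM in USB1 KO_shPARN, against 337, 362 and 489.8 CPM in USB1 KO, a log2 fold change of 1.34 (SE 0.19, edgeR adjusted p = 0.001701). Its opposite strand miR-3158-5p was high in 1 library above all, with 50.6, 34.8 and 193 CPM in USB1 KO_shPARN against 14.2, 16.5 and 25.7 CPM in USB1 KO, and gave 2.33 (SE 0.55, edgeR adjusted p = 0.0236). The 2 strands of miR-3158 are reverse complements over 18 or more bases, so a share of their reads may be exchanged. The call of miR-3158-5p was lost without KO library 1 or 2, with library totals and with only the 2 groups in the fit.

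miR-1307-5p was at 56.0, 69.8 and 98.9 CPM in USB1 KO_shPARN, against 24.3, 27.2 and 32.5 CPM in USB1 KO, and was higher by 1.43 on the log2 scale (SE 0.24, edgeR adjusted p = 0.002747). Its opposite strand miR-1307-3p was higher by 0.61 (edgeR adjusted p = 0.0448), a call that was lost without any 1 of the 6 libraries, with library totals, without the filter on low counts and with only the 2 groups in the fit. miR-1293, from an intron of LIMA1, was at 103, 86.6 and 61.4 CPM in USB1 KO_shPARN, against 36.5, 29.8 and 26.7 CPM in USB1 KO. It was higher by 1.43 (SE 0.31, edgeR adjusted p = 0.0121), and none of these 3 miRNAs overlapped between the groups. The call of miR-1293 was lost without KO library 2.

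The seed ACCCGUA marks the miR-99/100 family, regulators of the kinase mTOR, of which 2 of 3 tested members were higher. miR-99a-5p was at 367, 205 and 309.9 CPM in USB1 KO_shPARN, against 71.2, 77.5 and 161 CPM in USB1 KO, a log2 fold change of 1.52 (SE 0.32, edgeR adjusted p = 0.00966). miR-99b-5p was at 2323, 2415 and 2651 CPM in USB1 KO_shPARN, against 1856, 1832 and 1411 CPM in USB1 KO, a log2 fold change of 0.53 (SE 0.15, edgeR adjusted p = 0.0368). miR-100-5p differed more between replicates than between groups, with 326, 53.1 and 26.3 CPM in USB1 KO_shPARN against 46.6, 51.3 and 189 CPM in USB1 KO. The call of miR-99a-5p was lost without KO_shPARN library 1, without KO library 2, with library totals as the scale and with only the 2 groups in the fit, and that of miR-99b-5p under the same last 2 settings, without the filter on low counts and without any 1 of the 6 libraries.

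miR-99b is encoded with let-7e and miR-125a in an intron of SPACA6 (chr19:51692612-51693339, plus strand), and 3 of the 6 tested strands of that cluster were called higher. Beside both strands of miR-99b the call was miR-125a-3p, the opposite strand of miR-125a-5p, with 32.3, 38.8 and 31.2 CPM in USB1 KO_shPARN against 20.2, 20.6 and 23.3 CPM in USB1 KO. The log2 fold change was 0.68 (SE 0.19, edgeR adjusted p = 0.0354), with no overlap, and the call was lost without library 1 or library 2 of either group, with library totals, without the filter on low counts and with only the 2 groups in the fit.

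Of 7 tested miRNAs on a list of those induced by p53, 2 were called higher, beside 9.08% of all tested miRNAs, and the median was 0.29. Summed, the 7 overlapped between the groups, with 5074, 3565 and 3703 CPM in USB1 KO_shPARN against 4114, 3933 and 3063 CPM in USB1 KO. miR-34c-5p, 1 of the 2, was at 17.9, 20.02 and 5.93 CPM in USB1 KO_shPARN, against 5.33, 4.93 and 6.31 CPM in USB1 KO, so the groups overlapped, and it gave 1.43 (SE 0.36, edgeR adjusted p = 0.0207). miR-34b-3p, from the same locus, was near the limit of detection, with 1.501, 1.83 and 0.773 CPM in USB1 KO_shPARN against 0.105, 0.0985 and 0 CPM in USB1 KO.

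Among the miRNAs lower in USB1 KO_shPARN were those of the erythroid locus miR-144/451a, which is switched on by GATA1 in red cell precursors. miR-451a, which is cut by Argonaute 2 rather than Dicer and has no opposite strand, was at 372, 322 and 328 CPM in USB1 KO_shPARN, against 778, 834 and 842 CPM in USB1 KO. The replicates were tight and the groups well apart, with a log2 fold change of -1.26 (SE 0.18, edgeR adjusted p = 0.001701). miR-144-5p was at 123, 116 and 183 CPM in USB1 KO_shPARN, against 307, 290.0 and 287 CPM in USB1 KO, a log2 fold change of -1.07 (SE 0.19, edgeR adjusted p = 0.0042). miR-144-3p was at 12.1, 17.2 and 36.8 CPM in USB1 KO_shPARN, against 44.02, 49.2 and 78.6 CPM in USB1 KO, a log2 fold change of -1.37 (SE 0.38, edgeR adjusted p = 0.0339). In the list of erythroid and other blood lineage miRNAs these were the 3 calls among 13 tested, with a median of 0.13, and miR-486-5p, also erythroid, gave 0.32 with an edgeR adjusted p of 0.198.

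In the miR-15/16 family, which represses cyclins and BCL2, 3 of 6 tested members were called lower and 0 higher, with a median of -0.91. miR-424-5p was at 2.19, 2.198 and 3.61 CPM in USB1 KO_shPARN, against 8.26, 8.38 and 6.31 CPM in USB1 KO, a log2 fold change of -1.54 (SE 0.30, edgeR adjusted p = 0.006). miR-195-5p, at 4.64 to 7.73 CPM in USB1 KO_shPARN against 12.6 to 15.8 CPM in USB1 KO, gave -1.17, and its neighbour miR-497-5p (chr17:7017615-7018022, minus strand) gave -1.19. The abundant member miR-16-5p was at 414, 527 and 871 CPM in USB1 KO_shPARN, against 829, 881 and 1120.4 CPM in USB1 KO. These values overlapped, and its log2 fold change of -0.64 did not pass the test (SE 0.24, edgeR adjusted p = 0.0954). miR-15a-5p gave 0.29 and miR-15b-5p -0.22, and miR-195-5p was not called without KO_shPARN library 1 or 2 or KO library 1.

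miR-424 lies in a small cluster on the X chromosome (chrX:134540185-134546711, minus strand). The 5 tested miRNAs counted there through paired hairpin and mature entries of the RefSeq table (both strands of miR-424, miR-503-5p, miR-450a-5p and miR-450b-5p) were called lower, with a median log2 fold change of -0.87. miR-542-3p and miR-450a-2-3p, from hairpins in the same interval, had no such pair of entries and were not counted, and of these miR-542-3p was called lower (-0.87) and miR-450a-2-3p gave -1.12 without passing the test (edgeR adjusted p = 0.256). miR-450b-5p was at 25.2, 20.6 and 21.0 CPM in USB1 KO_shPARN, against 45.3, 38.5 and 28.6 CPM in USB1 KO, a log2 fold change of -0.76 (SE 0.20, edgeR adjusted p = 0.0283). In each of the 5, USB1 KO library 3 was the lowest of its group, and for miR-503-5p, with 11.9, 17.8 and 19.8 CPM in USB1 KO_shPARN against 34.9, 35.4 and 19.4 CPM in USB1 KO, it overlapped.

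In the family of miR-130, miR-301 and miR-454, 2 of 4 members were called lower, with a median of -0.81. miR-454-3p, from an intron of SKA2, was at 108, 133 and 103 CPM in USB1 KO_shPARN, against 264, 272 and 271 CPM in USB1 KO, a log2 fold change of -1.23 (SE 0.19, edgeR adjusted p = 0.001993). miR-301b-3p was at 7.62, 10.7 and 11.1 CPM in USB1 KO_shPARN, against 29.2, 26.7 and 17.5 CPM in USB1 KO, a log2 fold change of -1.33 (SE 0.23, edgeR adjusted p = 0.00335). Both separated the groups. The abundant miR-130b-3p gave -0.39 (edgeR adjusted p = 0.110), and miR-301a-3p, also encoded in an intron of SKA2, gave 0.07 with overlapping values.

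A second group on the X chromosome lies in introns of CLCN5 (chrX:50003148-50014683, plus strand), where the 10 tested miRNAs counted through paired entries of the RefSeq table were negative and 2 were called. miR-501, whose strands lie in the same interval but had no such pair of entries, was not counted and gave -0.84 for miR-501-5p, which was called lower (edgeR adjusted p = 0.0204), and -0.27 for miR-501-3p, which was not. miR-362-5p was at 48.3, 60.9 and 64.3 CPM in USB1 KO_shPARN, against 153, 140.2 and 114 CPM in USB1 KO, a log2 fold change of -1.23 (SE 0.20, edgeR adjusted p = 0.002747). miR-500a-5p was at 59.4, 65.9 and 74.1 CPM in USB1 KO_shPARN, against 153, 146 and 107 CPM in USB1 KO, a log2 fold change of -1.03 (SE 0.23, edgeR adjusted p = 0.0146). Neither overlapped, and their opposite strands gave -0.74 for miR-362-3p and -0.48 for miR-500a-3p without passing the test. The call of miR-500a-5p was lost without KO library 1 or 2.

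Both strands of miR-628, from an intron of CCPG1, were lower. miR-628-3p was at 11.2, 12.7 and 11.7 CPM in USB1 KO_shPARN, against 32.1, 30.8 and 23.8 CPM in USB1 KO, a log2 fold change of -1.29 (SE 0.21, edgeR adjusted p = 0.002747). miR-628-5p gave -1.09 (SE 0.25, edgeR adjusted p = 0.0146). miR-26a-2-3p, from an intron of CTDSP2, gave -1.02 (SE 0.24, edgeR adjusted p = 0.0189), with 11.98 to 19.9 CPM in USB1 KO_shPARN against 29.2 to 36.4 CPM in USB1 KO, whereas the shared guide strand miR-26a-5p stood at 13454 to 16185 CPM and 10461 to 16170.4 CPM with a log2 fold change of 0.08. Both miR-628-5p and miR-26a-2-3p lost their calls without KO_shPARN library 2 or KO library 1, and miR-628-5p also without KO_shPARN library 1.

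The largest decreases by the same rule were less even. miR-3182, annotated in an intron of CDH13, was at 69.5, 231 and 77.5 CPM in USB1 KO_shPARN, against 681, 688 and 767 CPM in USB1 KO, a log2 fold change of -2.498 (SE 0.73, edgeR adjusted p = 0.0498). miR-202-5p was at 20.9, 22.3 and 37.6 CPM in USB1 KO_shPARN, against 66.8, 80.4 and 97.6 CPM in USB1 KO, a log2 fold change of -1.59 (SE 0.47, edgeR adjusted p = 0.0464). The groups did not overlap in either, but the call of miR-202-5p, like that of miR-144-3p, was lost without any 1 library but KO_shPARN library 3, and that of miR-3182 without any 1 but KO_shPARN library 2. The calls of miR-202-5p and miR-3182 were also lost without the filter on low counts, that of miR-3182 with DESeq2 size factors, and that of miR-144-3p with only the 2 groups in the fit.

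Of the 5 miRNAs that the study followed in blood formation (the 5p strands of miR-125a, miR-125b and miR-142 and the 3p strands of miR-199a and miR-223), 2 were called lower and 0 higher, with a median of -0.23. Among all tested miRNAs 5.68% were called lower and 9.08% higher. The list was chosen by the study and is not independent evidence of a direction. miR-223-3p, the main myeloid miRNA, was at 379, 457 and 620.2 CPM in USB1 KO_shPARN, against 861, 819.9 and 624 CPM in USB1 KO. The highest and lowest of these nearly met, and the log2 fold change was -0.66 (SE 0.21, edgeR adjusted p = 0.0467). miR-199a-3p was at 40.5, 40.4 and 31.3 CPM in USB1 KO_shPARN, against 74.7, 84.7 and 50.5 CPM in USB1 KO, a log2 fold change of -0.91 (SE 0.28, edgeR adjusted p = 0.0446). It has the same sequence as miR-199b-3p, which gave -0.88, so the source locus cannot be told apart. The call of miR-223-3p was lost without library 1 or library 2 of either group, without the filter on low counts and with only the 2 groups in the fit, and that of miR-199a-3p without any 1 library but KO library 3.

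The other 3 did not pass the test. miR-125a-5p was at 300.8, 343 and 427 CPM in USB1 KO_shPARN, against 483, 437 and 332 CPM in USB1 KO, with a log2 fold change of -0.23 (SE 0.19, edgeR adjusted p = 0.490). miR-142-5p was at 442, 574 and 734 CPM in USB1 KO_shPARN, against 516, 584 and 584 CPM in USB1 KO, with 0.06 (SE 0.18, edgeR adjusted p = 0.863). miR-125b-5p was at 35.7, 7.20 and 5.28 CPM in USB1 KO_shPARN, against 5.02, 6.60 and 20.4 CPM in USB1 KO. Its values followed KO_shPARN library 1 and KO library 3, the libraries high in miR-143-3p, and its log2 fold change of 0.70 turned to -0.73 without KO_shPARN library 1. Of the 6 tested opposite strands 1 was called, miR-125a-3p, beside 14.8% of all tested miRNAs, and the median was 0.33.

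For other families the counts are given as a description, beside 9.08% higher and 5.68% lower among all tested miRNAs. Of 9 let-7 guide strands, the family that represses RAS and LIN28, 1 was called higher, with a median of 0.34. That was let-7i-5p, at 645, 436 and 388 CPM in USB1 KO_shPARN against 308, 298 and 332 CPM in USB1 KO, with a log2 fold change of 0.65 (SE 0.18, edgeR adjusted p = 0.0336). Of 12 strands of the oncogenic miR-17/92 cluster, 1 was called higher, the passenger miR-92a-1-5p, with a log2 fold change of 1.10, and the median was 0.17. Of 11 strands of miR-23/27/24, 2 were called higher, miR-27a-3p with 0.68 among them, and the median was 0.32. Counting only the usual guide strands, there were 0 calls among 5 of miR-30, 3 of miR-29, 3 of miR-148 and miR-152 and 3 of the miR-183 cluster, and there were 0 among 6 mirtrons (hairpins made by splicing) and 6 miRNAs made without Drosha, with medians between -0.38 and 0.27. Opposite strands of these families were not on the lists, and 2 of them were called, miR-29b-1-5p lower (-1.34, edgeR adjusted p = 0.0496) and miR-30d-3p higher (0.97, edgeR adjusted p = 0.00966). These counts come from the edgeR test with 238 of all 881 miRNAs at an unadjusted p under 0.05.

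**Figure D4:**
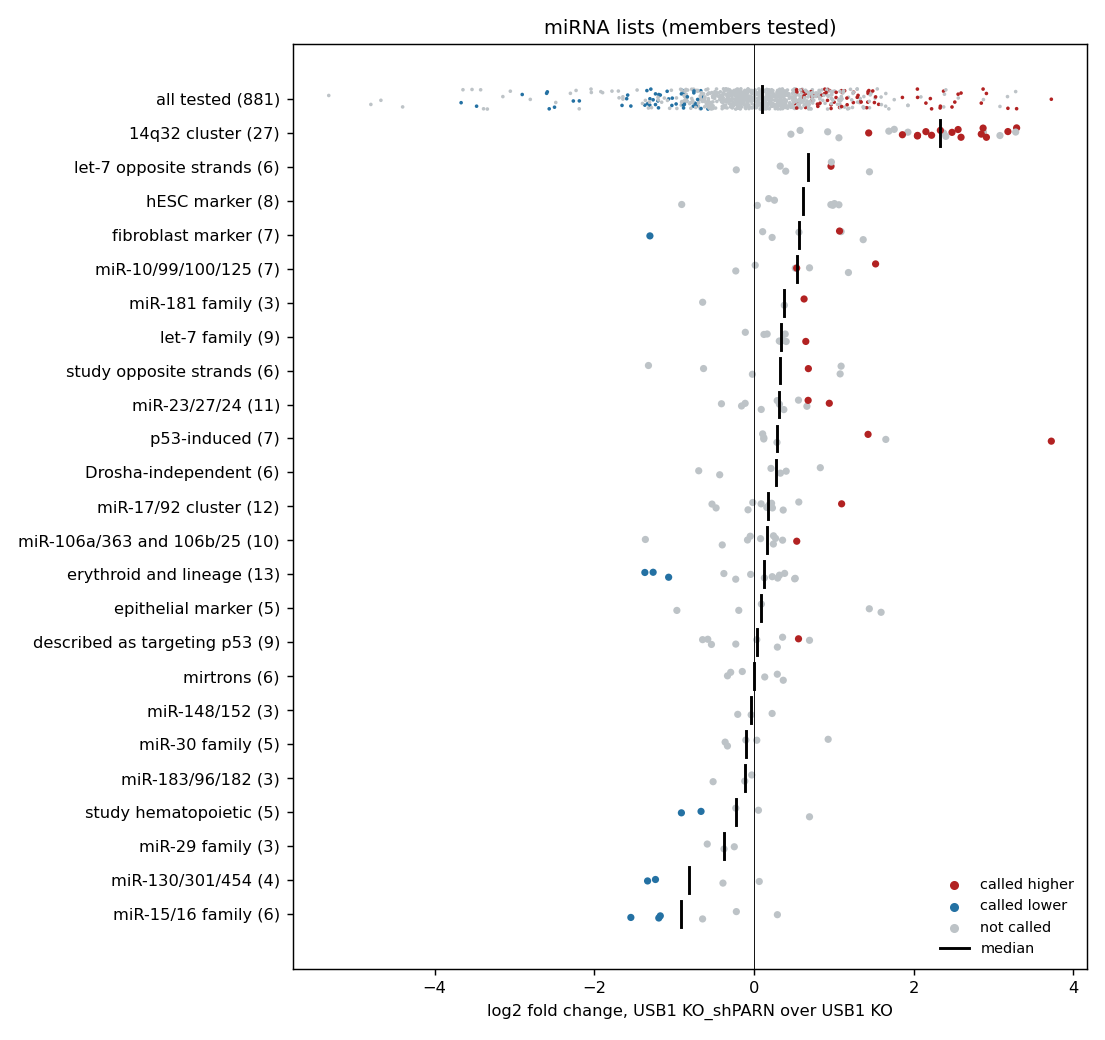
Log2 fold change of USB1 KO_shPARN over USB1 KO for each tested miRNA (points) in the lists described, with the list median as a vertical bar and the number of members tested in brackets. Red points were called higher, blue points lower and grey points neither. The 14q32 list has the highest median, 2.33, and the miR-15/16 family the lowest, -0.91, beside 0.11 for all tested miRNAs.

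The 2 strands of a hairpin share their transcription, so they were set side by side. Of 189 hairpin pairs with both strands tested, 10 had both called, and in all 10 the strands differed in the same direction. These 10 include miR-3158, whose strands may exchange reads. In 45 pairs only 1 strand was called, the more abundant guide in 26 and the less abundant passenger in 19. The other strand had the same sign in 29 of the 45, beside 107 of all 189 pairs with the same sign on both strands. Of 183 guide strands 21 were called higher and 15 lower (19.7% called), and of 188 passenger strands 16 and 13 (15.4%), beside 14.8% of all tested miRNAs. Guide here means only the strand of a pair with the higher mean CPM over the K562 libraries. By this measure miR-223-3p, miR-424-5p and miR-195-5p, each called lower, count as passengers, as does miR-142-5p, which was not called. The passenger group thus includes strands that the lists above treat as main strands. Passenger strands held 3.797, 3.74 and 3.78% of the counts of both in USB1 KO_shPARN, against 3.86, 3.98 and 4.51% in USB1 KO. The difference of -0.35 percentage points gave p = 0.1 in a two-sided exact permutation test, the smallest that 3 against 3 libraries allow, and it was -0.15 points without KO library 3.

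The last base of the mature sequence, the end on which tails are added, was A in 9 of the 73 called higher for which RefSeq gave a sequence (12.3%), in 15 of the 43 called lower (34.9%) and in 20.2% of the 777 tested. The 157 tested miRNAs that end in A had a median log2 fold change of -0.09, and the 232 that end in U had 0.18. The median GC content was 54.5% among the miRNAs called higher, 47.6% among those called lower and 50.0% among all tested, and the median length was 22 bases in each. Tails added after transcription are not in the deposited tables, which hold 1 count per mature miRNA, and were not analysed here.

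The effect of the PARN hairpin was then set beside that in cells with USB1. The fold changes in cells with USB1 compare libraries other than those of the first comparison. The calls in the 2 backgrounds are not separate, since all K562 libraries were fitted together, with TMM scaling and an estimate of spread in common. To be tested, miRNAs also had to be listed in the Control tables. Between Control_shPARN and Control, 11 miRNAs were called higher and 2 lower, or 1.48% of the 881. Without Control library 1 or 2, which were high in stem cell markers, 3 and 1 were called, and without Control library 3 it was 15. The log2 fold changes in the 2 backgrounds had a Pearson r of 0.19 and a Spearman rho of 0.17 over all 881 miRNAs and of 0.30 and 0.34 over the 130 called in USB1 KO cells, given as a description, since miRNAs are not replicates and the selection used one of the axes. The 80 miRNAs called higher had a median of 1.10 in USB1 KO cells and 0.13 in Control cells, where 50 were positive. The 50 called lower had a median of -1.18 in USB1 KO cells and -0.21 in Control cells, where 40 were negative. Over all 881 miRNAs, 47.79% were positive in Control cells, and 489 had the same sign in both backgrounds.

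Called in both backgrounds were 4 miRNAs, miR-21-5p, miR-144-5p, miR-135b-3p and miR-4745-5p. miR-21-5p was at 358279, 342398 and 262789 CPM in Control_shPARN, against 141627, 113114 and 139751 CPM in Control, a log2 fold change of 1.29 (SE 0.21, edgeR adjusted p = 0.0132). The libraries did not overlap, as in USB1 KO cells. miR-144-5p was at 93.9, 105 and 134 CPM in Control_shPARN, against 320.1, 346 and 315 CPM in Control, a log2 fold change of -1.56 (SE 0.20, edgeR adjusted p = 0.001704). For miR-21-5p the difference between the 2 effects was -0.22 (edgeR adjusted p = 0.736), and for miR-144-5p it was 0.49 (edgeR adjusted p = 0.374).

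A difference between the effects, tested as an interaction, was called for 16 miRNAs, or 1.82% of those tested. Of these, 12 were more positive and 4 more negative in USB1 KO cells. Of the 16, 13 were also called between USB1 KO_shPARN and USB1 KO, beside 14.8% of all tested miRNAs. The interaction contains that difference, so the overlap is partly built in. The 16 included 6 miRNAs of 14q32, with 3.40 for miR-654-3p (edgeR adjusted p = 0.0164) and 2.78 for miR-381-3p (edgeR adjusted p = 0.0335). All 27 tested miRNAs of the region had a positive interaction, beside 55.62% of all tested. This too contains their positive difference between USB1 KO_shPARN and USB1 KO. Outside that region miR-147b-3p was at 15.6, 15.3 and 13.0 CPM in Control_shPARN, against 14.3, 13.2 and 9.17 CPM in Control, levels near that of USB1 KO, and its interaction was 1.304 (edgeR adjusted p = 0.04997). miR-151a-3p was at 24882, 23908 and 27007 CPM in Control_shPARN, against 32717, 25228 and 24621 CPM in Control, with an interaction of 0.93, and its call between USB1 KO_shPARN and USB1 KO was lost with library totals. These calls were fragile, since leaving out 1 of the 12 libraries gave between 0 and 27 calls and library totals as the scale gave 7.

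For miR-451a the effect was -0.47 in Control cells (edgeR adjusted p = 0.256), and its interaction of -0.79 did not pass the test (edgeR adjusted p = 0.138). miR-454-3p, miR-301b-3p and miR-424-5p had effects of -0.51, -0.62 and -0.11 in Control cells and interactions of -0.73, -0.71 and -1.43, none past the test. For most miRNAs called in USB1 KO cells it was therefore not shown that the effect differed from that in Control cells.

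**Figure D5:**
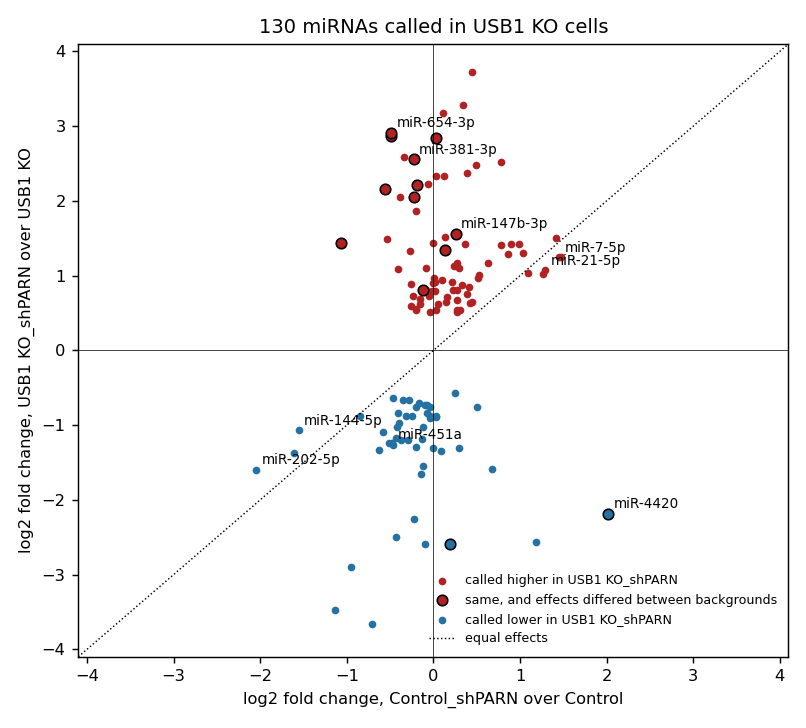
Log2 fold change of USB1 KO_shPARN over USB1 KO (y axis) against that of Control_shPARN over Control (x axis) for the 130 miRNAs called in USB1 KO cells. Red points were called higher and blue points lower, black rims mark the 13 whose effects differed between backgrounds, and the dotted line marks equal effects. miR-654-3p and miR-381-3p lie high on the y axis and near 0 on the x axis, and miR-21-5p lies near the dotted line.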

How the data were processed

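The authors prepared libraries from total RNA with a small RNA kit (Lexogen) for NovaSeq sequencing. Adapters were cut by them with cutadapt 2.5, the reads were mapped to miRBase entries by Bowtie2 2.2.9 allowing no seed mismatch, and SAMtools 1.3.1 served for counting. The submitters' notes also name DESeq2. The authors deposited unnormalised counts, 1 value per mature miRNA and library. 27 columns were used and 0 left out. Each deposited table lists only miRNAs with a count in its first column, so absence from a table does not mean absence from the other libraries. Reads that match several mature miRNAs cannot be assigned from such counts, and 11 called miRNAs share a run of 18 or more bases, direct or reverse, with another one.

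Adaptor entries, at most 0.206% of a library, were removed. miRNAs listed in all 4 K562 tables (1080) entered the low-count filter of edgeR 4.0.16 (filterByExpr, at a minimum count of 10 and a minimum total of 15), which left 881. All 12 K562 libraries were fitted together in R 4.3.3 with TMM factors and the edgeR quasi-likelihood test, robust dispersion being switched on and no term for the replicate number included, and p-values were adjusted over the 881 miRNAs by the Benjamini-Hochberg method. The same fit gave the comparisons in Control cells and the interaction, and a simulated data set was used to test the scripts. CPM values are TMM-scaled, with a prior count of 2 for mean log2 CPM. The exceptions are the summed stem cell, epithelial and fibroblast markers, which use library totals. SE is the absolute log2 fold change divided by the square root of the F statistic of the quasi-likelihood test. The 3 libraries of a group are described as biological replicates, but the labels do not say that they are separate cultures, so the p-values rest on the spread among these libraries, which may be technical in part. Counting precision follows depth, which was lowest for KO library 3.

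The members and miRNA lists were chosen with earlier results of these data known. Named miRNAs are the 12 largest called differences in each direction whose libraries do not overlap and whose mean log2 CPM is at least 3, their opposite strands, the study's blood miRNAs with their opposite strands, up to 4 abundant members of each described list, the 10 most abundant miRNAs and the 5 smallest interaction p-values. Clusters (hairpins within 10000 bases on one strand) and seed groups were described after their values were seen and carry no test of their own, and miR-9-5p, miR-34b-3p, miR-34c-5p, let-7i-5p, miR-27a-3p, miR-92a-1-5p, miR-135b-3p, miR-4745-5p, miR-29b-1-5p, miR-30d-3p, miR-199b-5p, miR-501-5p, miR-501-3p, miR-542-3p, miR-450a-2-3p, the large uncalled decreases and cluster members outside the rule were also named after their values were seen. Sequences and positions are from RefSeq and the GRCh38.p14 annotation, and 777 of the 881 miRNAs matched a sequence. The alternatives were other scalings and filters, DESeq2 1.42.0, a replicate block, a fit of the 2 groups alone and the removal of each library. Single miRNAs were followed through them only if the rule had chosen them, so the stability of the other named calls was not tested.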

Additional observations from a re-analysis of the deposited data

Results flagged for a closer look

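The effect of the PARN hairpin differed between USB1 KO cells and Control cells for 16 miRNAs, by the interaction term of the edgeR fit with Benjamini-Hochberg adjustment, with adjusted p between 0.01641 and 0.04997. The interaction, the log2 fold change in USB1 KO cells minus that in Control cells, was positive for 12 miRNAs. From 14q32 it was 3.40 for miR-654-3p, 3.36 for miR-323a-3p, 2.82 for miR-493-3p, 2.78 for miR-381-3p, 2.72 for miR-379-5p and 2.27 for miR-127-3p. Elsewhere it was 4.87 for miR-708-3p, 2.51 for miR-607, 2.40 for miR-4455, 1.3 for miR-147b-3p, 1.21 for miR-3158-3p and 0.93 for miR-151a-3p. It was negative for miR-4420 (-4.20), miR-589-3p (-2.79), miR-452-3p (-1.27) and miR-135b-5p (-1.22).

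The largest values belong to miRNAs near the limit of detection. miR-708-3p was at 1.73, 1.34 and 1.55 CPM in USB1 KO_shPARN and 0.836, 0.394 and 0.971 CPM in USB1 KO, and at 0.0848, 0 and 0.112 CPM in Control_shPARN and 1.20, 0.854 and 0.955 CPM in Control. miR-4420 was at 0.808, 0.855 and 0.258 CPM in USB1 KO_shPARN and 3.45, 3.15 and 1.94 CPM in USB1 KO, and at 5.09, 1.94 and 3.36 CPM in Control_shPARN and 0.736, 0.285 and 1.43 CPM in Control. Groups of 3 libraries are too small for a test of single libraries that stand apart, and none was made.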

How the results depend on the processing

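The 130 calls between USB1 KO_shPARN and USB1 KO became 50 (27 higher, 23 lower) with only the 2 groups in the fit, 47 of them among the 130, and 38 to 139 when 1 library was left out, with 42 without KO_shPARN library 1, 57 without library 2, 53 without KO library 1 and 38 without KO library 2. They were 107 with library totals, 112 with DESeq2 size factors, 101 without the filter, 118 with a CPM of at least 10, 163 with DESeq2 and 135 without robust dispersion. All 24 miRNAs chosen for the largest differences had the same sign under each of these settings, and 17 to 24 of them were called. With the replicate number as a block the calls were 133, of which 115 were among the 130. The deviations of same-numbered libraries correlated at -0.01, 0.02 and 0.02, and the labels do not say that a number marks a shared day, so the numbers were not taken to pair the libraries.

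The 13 calls in Control cells became 25 with library totals, 21 with a CPM of at least 10, 37 with DESeq2, 29 with the replicate block, 27 with only the 2 groups and 1 to 25 without 1 library. The 16 interaction calls became 7 with DESeq2 size factors, 7 with library totals, 1 with a CPM of at least 10, 5 without robust dispersion, 35 with DESeq2 and 0 to 27 without 1 library, where the full edgeR fit had 159 miRNAs at an unadjusted p under 0.05. The 45 calls between USB1 KO and Control became 16 to 34 without 1 library. The causes of these shifts were not tested. Leaving out 1 library also lowers the number of libraries, and this was not separated from the part of the library removed.

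Log2 fold changes that turned sign belonged to miRNAs that were not called. With library totals they were -0.20 for miR-142-5p, -0.18 for miR-301a-3p, -0.13 for let-7e-5p, -0.22 for miR-10a-5p, -0.021 for miR-92a-3p, -0.055 for miR-20a-5p, -0.035 for miR-17-5p, -0.13 for miR-378a-3p and -0.15 for miR-26a-5p. With a CPM of at least 10 they were -0.00188 for miR-142-5p and -0.027 for miR-10a-5p, and miR-10a-5p was also at -0.0166 with DESeq2 size factors, -0.00609 without the filter, -0.0167 with DESeq2 and -0.031 with the 2 groups alone. Leaving out 1 library gave -0.73 to 1.46 for miR-125b-5p, -0.17 to 0.17 for miR-142-5p, -0.24 to 0.082 for miR-142-3p, -1.62 to 1.67 for miR-199a-5p, -0.16 to 0.25 for miR-301a-3p, -0.27 to 0.093 for miR-146b-5p, -0.44 to 0.60 for miR-126-3p, -0.17 to 0.12 for miR-10a-5p and -0.10 to 0.18 for miR-26a-5p. Depth limits miRNAs under about 1 CPM most in KO library 3.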

Other observations

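Outside the miRNAs compared, 177 were listed for USB1 KO_shPARN but not USB1 KO, and 277 for USB1 KO but not USB1 KO_shPARN. The most counted of the first was miR-889-3p, a 14q32 miRNA, with 19, 12 and 11 counts in the USB1 KO_shPARN libraries. The most counted of the second was miR-3141, with 291, 608 and 650 counts in the USB1 KO libraries. A table omits miRNAs with no count in its first column, so the counts of these miRNAs in the other libraries of the group that omits them are unknown.

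miR-9-5p, a neural miRNA, was at 745, 685 and 756 CPM in USB1 KO_shPARN, against 1504, 1291 and 767 CPM in USB1 KO, with a log2 fold change of -0.71 (SE 0.22, edgeR adjusted p = 0.0457). Its level in Control was 339, 277 and 236 CPM, so both groups without USB1 lay above the Control libraries. The largest negative fold changes among all tested miRNAs were not called. miR-7704 was at 19.6, 40.4 and 118 CPM in USB1 KO_shPARN, against 174, 168 and 4208 CPM in USB1 KO, and gave -4.67 with an edgeR adjusted p of 0.1198. miR-3195, miR-5787 and miR-3960 gave -5.33, -4.80 and -4.40, and in each the deep USB1 KO libraries were lower than KO library 3.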
